A study of Mus musculus with 8 samples.

Results

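*Ncoa6*-KO macrophages were compared with *Ncoa6*-sufficient macrophages after both had been given lipopolysaccharide (LPS) and then monosodium urate (MSU) crystals. The comparison used 4 of the 8 libraries of the series, 2 per genotype, and 17625 of the 50615 genes in the deposited table, those with a rounded count sum of at least 10 over all libraries. Mice that were *Ncoa6* fl/fl LysM CRE gave the *Ncoa6*-KO cells, and *Ncoa6* fl/fl mice the sufficient cells, labelled WT, so both genotypes carried the floxed alleles and differed by the Cre. All mice were of the C57BL/6 strain. Bone marrow cells were differentiated with M-CSF at 20 ng/ml over 6 days into bone marrow-derived macrophages (BMDMs), and the stimulated cultures then had 4 h of LPS (100 ng/ml) followed by 2 h of MSU (200 µg/ml). The remaining 4 libraries, 2 per genotype, were from cells kept in medium alone. They enter the fit and give the values stated for medium alone, which are printed for some results only. The libraries of a group were from different mice. Cre was expressed from the lysozyme 2 locus, so deletion took place as marrow cells matured, and cells that had escaped it could remain.

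LPS binds the receptor complex of TLR4 and starts signalling through NF-kB and interferon regulatory factors, which raises precursor cytokines such as pro-IL-1β along with interferon-stimulated genes. MSU crystals, the cause of gout, are then taken up and activate the NLRP3 inflammasome, in which caspase-1 cleaves IL-1β and IL-18 for release. NCOA6 is a nuclear receptor coactivator and a subunit of the MLL3/MLL4 histone methyltransferase complexes, which mark enhancers.

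The transcript of the targeted gene was lower but present. *Ncoa6* had 1297 and 1173 normalized counts in sufficient libraries 1 and 2, and 563 and 526 in *Ncoa6*-KO libraries 1 and 2, counts being scaled to an effective library of 29332189. The groups were apart, and the level in the *Ncoa6*-KO was 44.1% of that in sufficient cells (log2 fold change -1.18 ± 0.124 SE, n = 2 per group, adjusted p = 0.00189). The call held without any 1 of the 4 LPS + MSU libraries. Every later call said to hold without any 1 library was checked against those 4 only. Adjusted p-values of this and every later gene are from edgeR's quasi-likelihood test with Benjamini-Hochberg adjustment over the 17625 genes, and a gene is called at a value under 0.05. With 2 libraries against 2 an exact permutation test cannot go below p = 0.333, so the test relies on the model's pooled spread. *Ncoa6* lies on the minus strand of chromosome 2 at 155390656-155473894 (GRCm38). The floxed part is given as exon 7, with no transcript named. In transcripts Ncoa6-201 and Ncoa6-204 this is a coding exon of 147 bases at chr2:155418878-155419024, and in *Ncoa6*-203 a different coding exon, of 129 bases at chr2:155422811-155422939, both lengths with 0 bases left over after whole codons. Which of them is floxed is not given in the sources used here. The exon of the former pair of transcripts is shown, in transcript sense, as a candidate for the stretch that Cre removes, and reads over all other exons still count toward the gene.
Ncoa6-201 exon 7: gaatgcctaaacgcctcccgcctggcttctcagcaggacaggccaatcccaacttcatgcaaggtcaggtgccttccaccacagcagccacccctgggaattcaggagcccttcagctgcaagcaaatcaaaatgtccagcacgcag

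Of the 17625 genes, 632 (3.59%) were called: 345 (1.96%) higher and 287 (1.63%) lower in *Ncoa6*-KO cells. DESeq2 on the same counts called 344 higher and 505 lower. The median absolute log2 fold change of a called gene was 0.76, and 182 exceeded 1, of which 114 were higher and 68 lower. At an unadjusted p under 0.05 there were 3062 genes (17.4%). The median over all genes tested was 0.00 and 50.1% were positive, which TMM scaling brings about by centring the bulk of the genes. With DESeq2's size factors in the same test the median was -0.032 and the calls were 295 higher and 343 lower. Of the 632 called genes, 608 code for protein, as do 13787 of the 17625 tested. Called genes were expressed genes: with genes split into 4 equal groups by level, 0.0681% of the lowest group were called, and between 2.86% and 5.83% of each group above it. The 4 libraries held 25281955 to 27839960 counts. Sufficient library 1 and *Ncoa6*-KO library 2 carried most of the calls: 60 genes were called without the former and 58 without the latter, against 426 without sufficient library 2 and 393 without *Ncoa6*-KO library 1. All 632 kept their sign in each of these 4 fits, which could hardly be otherwise, since the genotypes did not overlap for any of the 632. In a fit of the 4 LPS + MSU libraries alone, 139 genes were called.

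**Figure D1:**
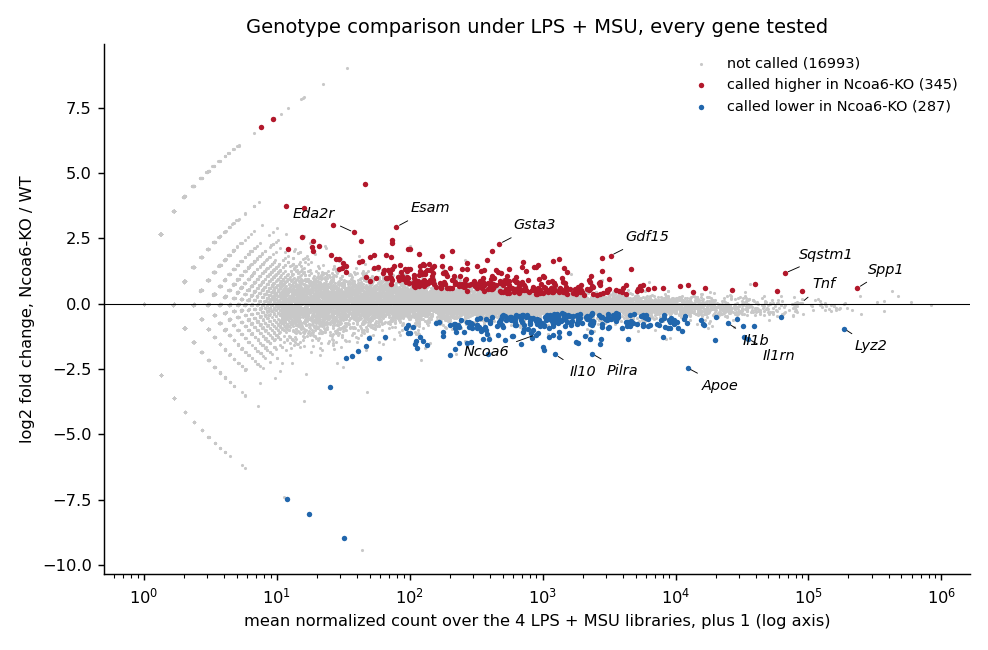
Log2 fold change between *Ncoa6*-KO and sufficient cells (labelled WT) after LPS + MSU (vertical axis) against the mean normalized count of the 4 libraries plus 1 (horizontal, log axis) for the 17625 genes tested, with 345 called higher in red and 287 called lower in blue. Both colours spread over the range of levels above the lowest genes, *Apoe* is the far-down blue point among well-expressed genes, and *Tnf* sits on the zero line.

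Members of the IL-1 family lay on the lower side in stimulated *Ncoa6*-KO cells. Of 15 members tested, 4 were called lower and 0 higher (26.7%, beside 3.59% of all genes). Of these members, 13 were negative, and the median log2 fold change was -0.67, beside 0.00 over all genes tested. Among the ligands, *Il1a* had 13725 and 13660 normalized counts in sufficient and 6527 and 7966 in *Ncoa6*-KO libraries (-0.92 ± 0.108, adjusted p = 0.00315). *Il1b*, the precursor that the inflammasome cleaves, had 31995 and 29707 against 18367 and 18637 (-0.74 ± 0.111, adjusted p = 0.00744). Both ligands were lower in each *Ncoa6*-KO library than in either sufficient library, and for 47.4% of all genes tested the genotypes likewise did not overlap. The antagonist was lower too: *Il1rn*, which blocks the IL-1 receptor, had 63118 and 37978 against 22727 and 17200 (-1.34 ± 0.243, adjusted p = 0.0157). The fold was larger for the antagonist than for *Il1b*, although the difference between these genes was not tested. *Il18rap*, the accessory chain of the IL-18 receptor, had 244 and 156 against 78.4 and 56 (-1.57 ± 0.298, adjusted p = 0.0194). The call of *Il1a* held without any 1 library. Those of *Il1b*, *Il1rn* and *Il18rap* were lost without sufficient library 1 and without *Ncoa6*-KO library 2, where their log2 fold changes were -0.69 and -0.75 for *Il1b*, -0.94 and -1.16 for *Il1rn* and -1.22 and -1.35 for *Il18rap*.

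The anti-inflammatory cytokine *Il10* had one of the deepest differences of the comparison, with 2634 and 1306 normalized counts in sufficient and 589 and 439 in *Ncoa6*-KO libraries, 26.2% of the sufficient level (-1.94 ± 0.268, adjusted p = 0.00518). Its sufficient libraries lay far apart, yet both were above both *Ncoa6*-KO libraries. Without *Ncoa6*-KO library 2 the call was lost, at -1.74. *Il12rb1*, a receptor chain for IL-12 and IL-23, had 701 and 431 against 294 and 155 (-1.33 ± 0.303, adjusted p = 0.0387), a call lost without sufficient library 1 or *Ncoa6*-KO library 2 (-0.94 and -0.95 for *Il12rb1*). Of the 19 members of the IL-6, IL-12 and IL-10 families tested, these 2 were called, 16 were negative and the median was -0.38. *Il6* had 18343 and 19961 against 15528 and 13857 (-0.38, adjusted p = 0.172), and *Il12b*, a subunit of IL-12 and IL-23, 15759 and 14015 against 12366 and 9301 (-0.46, adjusted p = 0.137). Neither passed edgeR's test, but DESeq2 called both. The libraries of the genotypes did not overlap for either gene, as was so for 47.4% of all genes tested. *Tnf* stood at 80733 and 93808 against 87847 and 91028 (0.04 ± 0.122, adjusted p = 0.923), with overlapping groups. Of 33 members of the TNF superfamily and its receptors, 2 were called (6.06%, beside 3.59% of all genes). *Tnfsf13* (APRIL, a survival factor for B cells) was called higher (0.81 ± 0.151, adjusted p = 0.0178) and *Tnfrsf11a* (RANK, the receptor that drives osteoclast formation) lower (-0.79 ± 0.114, adjusted p = 0.00638), calls lost without sufficient library 1 (0.85 for *Tnfsf13* and -0.67 for *Tnfrsf11a*). *Tnfsf13* also lost the call without sufficient library 2 (0.76) and *Tnfsf13* and *Tnfrsf11a* without *Ncoa6*-KO library 2 (0.66 for *Tnfsf13* and -0.71 for *Tnfrsf11a*).

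The chemokines that were called were higher, and the chemoattractant receptors that were called were lower. Of 26 chemokines tested, 2 were called (7.69%, beside 3.59% of all genes), both higher. *Cxcl3*, a neutrophil attractant, had 680 and 1179 normalized counts in sufficient and 1519 and 2776 in *Ncoa6*-KO libraries (1.21 ± 0.271, adjusted p = 0.037), and *Cx3cl1*, the ligand of CX3CR1, 1722 and 2034 against 2880 and 2919 (0.63 ± 0.108, adjusted p = 0.0132). The list as a whole did not rise, since 20 of the 26 were negative and the median was -0.24 (-0.36 to -0.09 without each of the 4 libraries in turn). The most studied monocyte and T-cell attractants did not pass the test: *Ccl2* was at -0.09 (adjusted p = 0.861), *Ccl5* at -0.48 (0.407) and *Cxcl10* at -0.15 (0.657). Of 25 chemoattractant receptors, 4 were called (16%) and all were lower. The formyl peptide receptors, which guide phagocytes to bacterial and mitochondrial peptides, were among them: *Fpr1* had 3554 and 2761 against 1308 and 1658 (-1.09 ± 0.158, adjusted p = 0.006), and *Fpr2* 5873 and 5367 against 3896 and 3300 (-0.64 ± 0.12, adjusted p = 0.0179). *Ccr1*, a receptor for CC chemokines, was lower, at -1.16 ± 0.246 (adjusted p = 0.0296). Each of these 5 calls was lost without sufficient library 1, where the log2 fold changes were 0.85 for *Cxcl3*, 0.50 for *Cx3cl1*, -0.91 for *Fpr1*, -0.59 for *Fpr2* and -0.93 for *Ccr1*. *Cx3cl1* and *Ccr1* also lost the call without *Ncoa6*-KO library 1 (0.62 for *Cx3cl1* and -0.97 for *Ccr1*) and *Cxcl3*, *Cx3cl1*, *Fpr2* and *Ccr1* without *Ncoa6*-KO library 2 (0.70 for *Cxcl3*, 0.61 for *Cx3cl1*, -0.53 for *Fpr2* and -1.41 for *Ccr1*).

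Among the genes of the inflammasome itself, 2 sensors were lower while the sensor of MSU crystals and caspase-1 were not called. They were the called members of 18 tested (11.1%, beside 3.59% of all genes). *Nlrc4*, which forms an inflammasome with NAIP proteins on bacterial ligands, had 133 and 131 normalized counts in sufficient and 57.5 and 63 in *Ncoa6*-KO libraries (-1.13 ± 0.213, adjusted p = 0.0187). *Nlrp1a* had 155 and 117 against 66.7 and 82.5 (-0.87 ± 0.196, adjusted p = 0.0374). Replicates of *Nlrc4* were nearly equal, but its call, like that of *Nlrp1a*, was lost without sufficient library 1, without either *Ncoa6*-KO library and, for *Nlrc4*, without sufficient library 2, with -1.2 to -1.08 for *Nlrc4* and -1.07 to -0.66 for *Nlrp1a* over all alternatives. The sensor that responds to MSU crystals was not called: *Nlrp3* had 20048 and 21346 against 18998 and 22525 (0.00 ± 0.113, adjusted p = 1). *Casp1*, the protease that it activates, was at -0.10 ± 0.0963 (adjusted p = 0.676). *Pycard*, which encodes the adaptor ASC, had 1719 and 1195 against 942 and 930 (-0.64 ± 0.161) and missed the threshold at adjusted p = 0.0579. DESeq2 called it. *Panx1*, a channel that releases ATP, was higher, with 277 and 297 against 546 and 595 (0.99 ± 0.105, adjusted p = 0.00191), a call that held without any 1 library. Of 14 pannexin and purinergic receptor genes tested, the other member called was *P2ry1*, an ADP receptor, with 69.3 and 84 against 187 and 153 (1.15 ± 0.192, adjusted p = 0.0116), lost without sufficient library 1 (1.01 for *P2ry1*). *P2ry1* also lost the call without *Ncoa6*-KO library 1 (0.98) and again without *Ncoa6*-KO library 2 (1.28). Of the 14 pannexin and purinergic receptor genes, 14.3% were called. *Panx1* was not called in medium alone (0.11, adjusted p = 0.697).

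Interferon-stimulated genes were mostly negative, and 1 passed the test (2.04%, beside 3.59% of all genes). Of 49 tested, 48 were negative, with a median of -0.27, and 1 was called by edgeR and 2 by DESeq2, 11 of the 49 having an unadjusted p under 0.05. *Ifit1* was at -0.10 (85851 and 77509 against 77018 and 75180), *Isg15* at -0.17 and *Rsad2*, which encodes viperin, at -0.27, with adjusted p-values of 0.863, 0.778 and 0.56. *Ifi27* was the exception, called higher with 1100 and 1139 against 1486 and 1610 (0.47 ± 0.087, adjusted p = 0.0178) and lost without sufficient library 1 (0.43 for *Ifi27*). *Ifi27* also lost the call without sufficient library 2 (0.48) and again without *Ncoa6*-KO library 2 (0.40). All 20 guanylate-binding proteins and p47 GTPases, which attack vacuoles that hold pathogens, were negative, with a median of -0.36 (-0.53 to -0.17 without each of the 4 libraries in turn) and 0 called by edgeR or DESeq2 (4 of 20 with an unadjusted p under 0.05). *Gbp2* was at -0.45 (adjusted p = 0.313) and *Irgm1* at -0.21 (adjusted p = 0.639). With medium alone the same lists had medians of -0.94 and -1.11, and 35 of 49 and 10 of 20 were called there, beside 1.88% of all genes. *Ifnb1* had 334 and 253 against 204 and 157 (-0.70 ± 0.198, adjusted p = 0.0867), and *Irf7* 52109 and 46624 against 39495 and 35853 (-0.39 ± 0.192, adjusted p = 0.333). Of the 29 interferons, receptors, kinases, STATs and interferon regulatory factors tested, 0 were called, 10 had an unadjusted p under 0.05 and DESeq2 called 2.

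Several genes that limit the LPS response were lower. Of 27 Toll-like receptors and adaptors, *Tlr1*, which pairs with TLR2 to sense bacterial lipopeptides, was called (6142 and 5571 against 3974 and 2546, -0.84 ± 0.184, adjusted p = 0.0334). None of the 5 NF-kB subunits was called. Of 13 inhibitors and feedback genes of the pathway, 3 were called lower: *Bcl3*, an atypical inhibitor of NF-kB (-0.83 ± 0.162, adjusted p = 0.0214), *Tnip3*, a partner of A20 (-0.73 ± 0.172, adjusted p = 0.046), and *Zfp36*, which encodes tristetraprolin, a destroyer of cytokine mRNAs, with 24752 and 17220 normalized counts against 12180 and 11653 (-0.82 ± 0.147, adjusted p = 0.0155). *Nfkbia*, the first inhibitor of NF-kB to be remade, was not called, at -0.14 (adjusted p = 0.512) nor was *Tnfaip3*, which encodes A20, at -0.19 (adjusted p = 0.379). Of 10 dual-specificity phosphatases, which switch off MAP kinases, 4 were called: *Dusp2* (-0.85 ± 0.184), *Dusp7* (-0.75 ± 0.136) and *Dusp16* (-0.45 ± 0.109) lower and *Dusp4* (0.54 ± 0.125) higher, with adjusted p between 0.0159 and 0.0488. Of 22 immediate early genes, *Ier2* (-0.86 ± 0.178) and *Ier3* (-0.96 ± 0.169) were called lower, with adjusted p = 0.0267 and 0.0142. *Fos* at -0.60 (adjusted p = 0.109) and *Egr1* at -0.30 (adjusted p = 0.383) were not, though DESeq2 called *Fos*. Called shares were 3.7% of the Toll-like list, 23.1% of inhibitors and feedback genes, 40% of the phosphatases and 9.09% of immediate early genes. Over all genes the share was 3.59%, near that of the Toll-like list. Each of these 10 calls was lost without sufficient library 1, at log2 fold changes between -0.80 and -0.37 for the lower genes and 0.44 for *Dusp4*. *Tlr1*, *Dusp16* and *Dusp4* also lost the call without sufficient library 2 (-0.92 for *Tlr1*, -0.55 for *Dusp16* and 0.63 for *Dusp4*), *Bcl3*, *Tnip3*, *Zfp36*, *Dusp2*, *Dusp16* and *Ier2* without *Ncoa6*-KO library 1 (-1.04 to -0.45) and *Tlr1*, *Bcl3*, *Tnip3*, *Zfp36*, *Dusp2*, *Dusp7*, *Dusp16*, *Ier2*, *Ier3* and *Dusp4* without *Ncoa6*-KO library 2 (-0.88 to -0.48 for the lower and 0.37 for the higher genes).

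**Figure D2:**
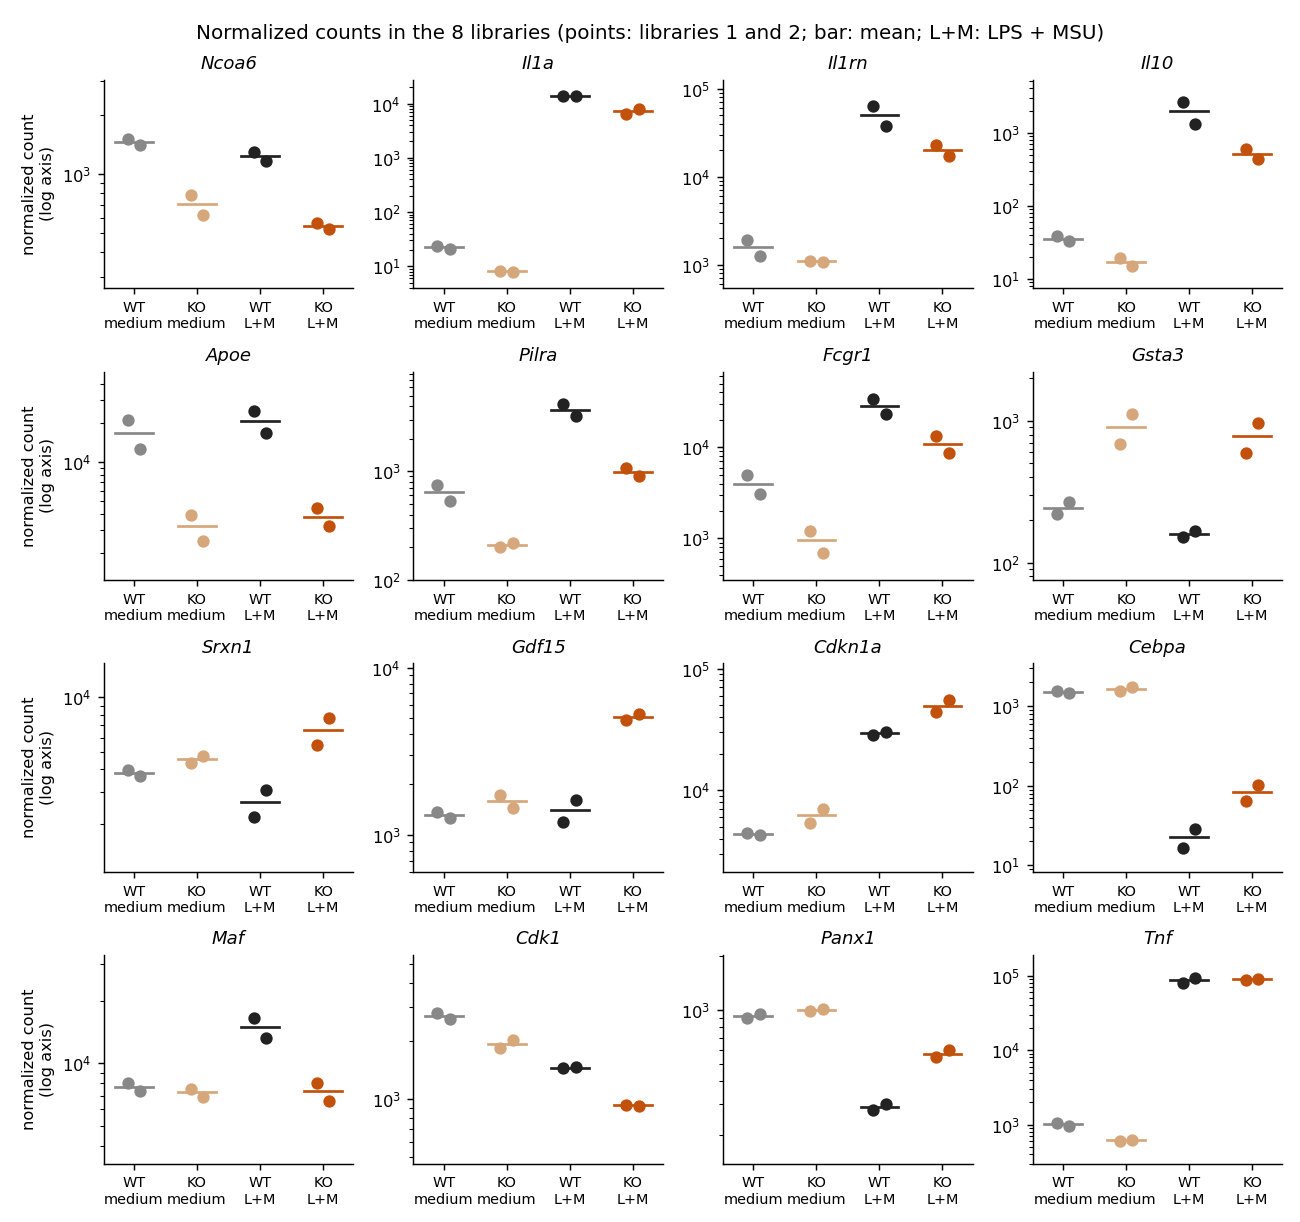
Normalized counts (vertical, log axis) of 16 genes in each of the 8 libraries, with medium alone (paler) and LPS + MSU (darker, L+M), sufficient cells (WT) and *Ncoa6*-KO cells side by side, points for libraries and bars for means of 2. After LPS + MSU the genotypes did not overlap for any of the genes shown except *Tnf*, nor for 47.4% of all genes tested. For *Srxn1*, *Gdf15*, *Cebpa*, *Maf* and *Panx1* the genotypes lay close together with medium alone.

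Several receptors of the myeloid surface were lower, and some of their calls held whichever LPS + MSU library was left out. The paired immunoglobulin-like type 2 receptors, encoded side by side on chromosome 5, bind O-glycosylated proteins, with PILRα inhibitory and PILRβ activating. *Pilra* had 4171 and 3276 normalized counts in sufficient and 1079 and 900 in *Ncoa6*-KO libraries (-1.91 ± 0.165, adjusted p = 0.000596). *Pilrb1* had 666 and 552 against 193 and 129 (-1.91 ± 0.223, adjusted p = 0.0031), and *Pilrb2* 352 and 321 against 125 and 78.3 (-1.72 ± 0.304, adjusted p = 0.0143). The calls of *Pilra* and *Pilrb1* held without any 1 library, and that of *Pilrb2* was lost without sufficient library 1 or *Ncoa6*-KO library 2 (-1.66 and -1.43 for *Pilrb2*). The 3 genes are close copies, so reads could have been shared among them. Of 26 SIRP, TREM, CD300 and CD200 receptors, 4 were called (15.4%, beside 3.59% of all genes), all lower. *Cd300lf*, an inhibitory lipid receptor, had 1682 and 1669 against 683 and 781 (-1.20 ± 0.113, adjusted p = 0.000901), again without depending on any 1 library. *Treml2* (-1.51 ± 0.27), *Cd300e* (-1.02 ± 0.189) and *Gm5150*, a SIRP-like gene (-2.06 ± 0.39), followed, with adjusted p between 0.0149 and 0.0189. These 3 calls were lost without sufficient library 1 (-1.11 for *Treml2*, -0.92 for *Cd300e* and -1.48 for *Gm5150*). *Cd300e* and *Gm5150* also lost the call without *Ncoa6*-KO library 1 (-1.07 for *Cd300e* and -2.37 for *Gm5150*) and *Treml2*, *Cd300e* and *Gm5150* without *Ncoa6*-KO library 2 (-1.83 to -0.98).

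Receptors for antibody and complement were also on the lower side. *Fcgr1*, the high-affinity IgG receptor, had 33934 and 23328 normalized counts in sufficient and 13424 and 8582 in *Ncoa6*-KO libraries (-1.38 ± 0.305, adjusted p = 0.0353). It was the called member of 8 Fc receptors, of which all 5 gamma receptors were negative. *Fcgr4* at -1.30 (adjusted p = 0.0829) and *Fcgr2b*, the inhibitory receptor, at -0.66 (adjusted p = 0.0642) did not pass edgeR's test, though DESeq2 called the latter. Their groups were apart, as were those of 47.4% of all genes tested. Of 18 complement genes, 3 were called lower: *Cfb*, complement factor B, with 7265 and 7161 against 4592 and 3850 (-0.77 ± 0.121, adjusted p = 0.00945), and the complement receptor chains *Itgam* (-0.51 ± 0.118, adjusted p = 0.0412) and *Itgax* (-0.74 ± 0.151, adjusted p = 0.0255), 15 of the 18 being negative. The 3 chains of C1q stood together at -0.79 for *C1qa*, -0.91 for *C1qb* and -0.85 for *C1qc*, but with wide spread, for example 42118 and 29663 against 23603 and 14705 for *C1qb*, and adjusted p between 0.105 and 0.111. *Itgam* and *Fcgr1* are macrophage markers as well as members here. Called shares were 16.7% of the complement genes and 12.5% of the Fc receptors, beside 3.59% of all genes. Without sufficient library 1 the calls of *Fcgr1*, *Cfb*, *Itgam* and *Itgax* were lost, at -1.09 for *Fcgr1*, -0.77 for *Cfb*, -0.60 for *Itgam* and -0.76 for *Itgax*. *Itgam* and *Itgax* also lost the call without sufficient library 2 (-0.43 for *Itgam* and -0.74 for *Itgax*), *Fcgr1*, *Itgam* and *Itgax* without *Ncoa6*-KO library 1 (-1.75 to -0.44) and *Fcgr1*, *Cfb*, *Itgam* and *Itgax* without *Ncoa6*-KO library 2 (-1.10 to -0.60).

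The Schlafen family of interferon- and LPS-inducible genes had 8 of 8 members negative and 2 called. Called shares were 25% of this family and 16.7% of the Ms4a and Tmem176 list below, beside 3.59% of all genes. *Slfn4* had 11845 and 10785 normalized counts in sufficient and 4762 and 4735 in *Ncoa6*-KO libraries (-1.25 ± 0.108, adjusted p = 0.000596), with replicates of each genotype close together and a call that held without any 1 library. *Slfn1* was lower by a like amount (-1.09 ± 0.167, adjusted p = 0.00829), a call lost without sufficient library 1 or *Ncoa6*-KO library 2 (-0.98 and -0.89 for *Slfn1*). Of 12 Ms4a and Tmem176 membrane protein genes, 10 were negative and the median was -0.77, the lowest of the function lists in the plot by list, but only *Ms4a6b* (5029 and 2993 against 1784 and 970, -1.54 ± 0.368, adjusted p = 0.0469) and *Tmem176b* (1236 and 822 against 444 and 270, -1.52 ± 0.336, adjusted p = 0.0349) were called. DESeq2 called neither, and both calls were lost without sufficient library 1 (-1.13 for *Ms4a6b* and -1.21 for *Tmem176b*). *Ms4a6b* and *Tmem176b* also lost the call without *Ncoa6*-KO library 1 (-2.06 for *Ms4a6b* and -1.95 for *Tmem176b*) and the same genes without *Ncoa6*-KO library 2 (-1.17 for *Ms4a6b* and -1.21 for *Tmem176b*). *Clec4a2*, an inhibitory C-type lectin, was the called gene of 19 C-type lectin receptors, 5.26% beside 3.59% of all genes (-0.70 ± 0.156, adjusted p = 0.0353), and *Cd86*, which costimulates T cells, of 8 costimulatory molecules, 12.5% (-0.88 ± 0.188, adjusted p = 0.0306). Both were lost without sufficient library 1 (-0.54 for *Clec4a2* and -0.74 for *Cd86*). *Clec4a2* also lost the call without *Ncoa6*-KO library 1 (-0.80) and *Clec4a2* and *Cd86* without *Ncoa6*-KO library 2 (-0.64 for *Clec4a2* and -0.57 for *Cd86*). Of 11 MHC class II and 14 MHC class I presentation genes, 0 were called by edgeR or DESeq2, with 1 and 2 at an unadjusted p under 0.05.

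**Figure D3:**
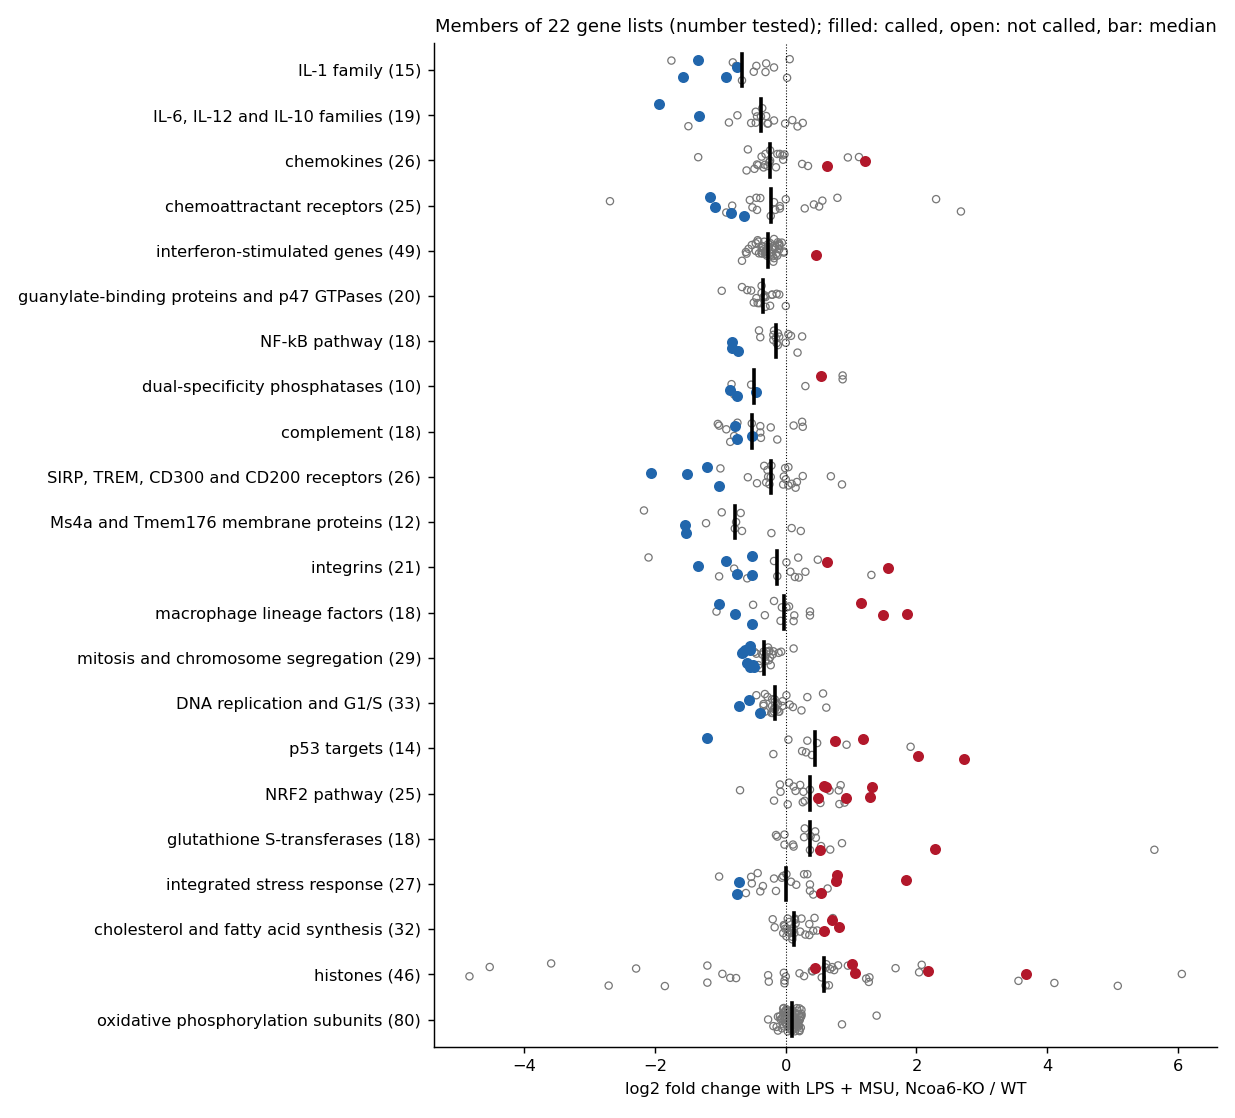
Log2 fold change under LPS + MSU (horizontal axis) of every tested member of 22 gene lists, with called genes filled (red higher, blue lower), others open and a bar at the list median. The IL-1 family, complement and Ms4a/Tmem176 bars lie left of zero at -0.67, -0.51 and -0.77, those of the p53 targets, NRF2 pathway and glutathione S-transferases right of it at 0.44, 0.37 and 0.38, and the oxidative phosphorylation genes cluster at 0.10 with 0 called.

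Adhesion and guidance molecules changed in both directions. Of 21 integrin chains, 5 alpha chains were called lower and 2 beta chains higher (33.3% of the list, beside 3.59% of all genes). *Itgal*, a chain of LFA-1 that binds ICAM proteins on endothelium and T cells, had 11876 and 11740 normalized counts in sufficient and 5671 and 6840 in *Ncoa6*-KO libraries (-0.92 ± 0.127, adjusted p = 0.00518), a call that held without any 1 library. *Itga9* (-1.35 ± 0.193, adjusted p = 0.00596) and *Itga6* (-0.52 ± 0.0967, adjusted p = 0.0186) were lower as well. *Itgb3*, the beta chain of the vitronectin receptor, rose from 125 and 150 to 305 and 506 (1.56 ± 0.216, adjusted p = 0.00518), and *Itgb8*, which helps to free active TGF-β, from 1452 and 1441 to 2386 and 2097 (0.63 ± 0.107, adjusted p = 0.0125). The plexins called, which are receptors for semaphorins, were higher: *Plxna2* had 725 and 1155 against 1834 and 1866 (0.98 ± 0.182, adjusted p = 0.0178), with *Plxnd1* at 0.72 ± 0.126 and *Plxna1* at 0.62 ± 0.142 (adjusted p = 0.0142 and 0.0404). The semaphorins called were lower. *Sema4c* had 1852 and 1317 against 508 and 411, a difference of -1.78 ± 0.162 (adjusted p = 0.000749) that held without any 1 library, and *Sema4a* was at -0.61 ± 0.102 (adjusted p = 0.0118). *Esam*, an endothelial-type adhesion molecule, was the most strongly raised gene of the rule for named genes (fold 7.68), with 12.5 and 23.4 against 75.8 and 203 (2.94 ± 0.563, adjusted p = 0.02). Its *Ncoa6*-KO libraries differed by more than the sufficient ones, and without sufficient library 1 the call was lost, at 2.55, as were those of *Itga9*, *Itga6*, *Itgb3*, *Itgb8*, the 3 plexins and *Sema4a* (-1.25 for *Itga9*, -0.50 for *Itga6*, 1.42 for *Itgb3*, 0.63 for *Itgb8*, 0.67 for *Plxna2*, 0.57 for *Plxnd1*, 0.45 for *Plxna1* and -0.69 for *Sema4a*). *Esam*, *Itga6*, *Itgb8* and *Sema4a* also lost the call without sufficient library 2 (3.45 for *Esam*, -0.55 for *Itga6*, 0.62 for *Itgb8* and -0.54 for *Sema4a*), *Itga6*, *Itgb8*, *Plxna2*, *Plxna1* and *Sema4a* without *Ncoa6*-KO library 1 (-0.60 to -0.56 for the lower and 0.52 to 0.97 for the higher genes) and *Esam*, *Itga9*, *Itga6*, *Itgb8*, *Plxna2*, *Plxnd1*, *Plxna1* and *Sema4a* without *Ncoa6*-KO library 2 (-1.11 to -0.49 for the lower and 0.64 to 2.07 for the higher genes).

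*Apoe*, the apolipoprotein with which macrophages export cholesterol, was the gene that fell most by the rule for named genes. It had 24984 and 16637 normalized counts in sufficient and 4413 and 3187 in *Ncoa6*-KO libraries, 18.3% of the sufficient level (-2.45 ± 0.3, adjusted p = 0.00348). The call was lost without *Ncoa6*-KO library 2, at -2.24. With medium alone the difference was of like size (-2.40, adjusted p = 0.00413). It was also the only one of 18 lipid efflux genes and LXR targets to be called by edgeR (5.56%, beside 3.59% of all genes), with a list median of -0.14 (-0.42 to 0.02 without each of the 4 libraries in turn). *Abcg1*, a cholesterol exporter, had 4036 and 3311 against 3220 and 1226, so that its *Ncoa6*-KO libraries differed by more than the genotypes (-0.72 ± 0.479, adjusted p = 0.49), and *Nr1h3*, which encodes LXRα, was at -0.27 (adjusted p = 0.266). Of 22 genes of cholesterol synthesis, 20 were positive and 3 were called higher (13.6%). The called genes include *Mvd* (0.82 ± 0.159) and *Dhcr7* (0.71 ± 0.149), enzymes of an early and a late step, with adjusted p of 0.0206 and 0.028. The median over the cholesterol genes was 0.14, but it was -0.06 without *Ncoa6*-KO library 1 and 0.35 without *Ncoa6*-KO library 2, and 0 of the 22 were called without sufficient library 1 or without *Ncoa6*-KO library 1. Both of these calls were lost without sufficient library 1 (0.79 for *Mvd* and 0.62 for *Dhcr7*). *Mvd* and *Dhcr7* also lost the call without sufficient library 2 (0.83 for *Mvd* and 0.80 for *Dhcr7*), the same genes without *Ncoa6*-KO library 1 (0.51 for *Mvd* and 0.59 for *Dhcr7*) and *Dhcr7* without *Ncoa6*-KO library 2 (0.81). Of 24 nuclear receptors, 0 were called by edgeR or DESeq2, 5 having an unadjusted p under 0.05. Among coactivators, *Ncoa2* was called higher (456 and 472 against 613 and 806, 0.61 ± 0.137, adjusted p = 0.037), also lost without sufficient library 1 (0.58). *Ncoa2* also lost the call without sufficient library 2 (0.63) and again without *Ncoa6*-KO library 2 (0.40). *Ncoa1* at -0.16 and *Ncoa3* at -0.27 were not called, and none of 9 genes of the MLL3/MLL4 complex was, by edgeR or DESeq2, with 2 at an unadjusted p under 0.05.

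Several genes that protect against oxidants and electrophiles were higher in stimulated *Ncoa6*-KO cells. NRF2, released from KEAP1 under oxidative stress, pairs with small MAF proteins and binds antioxidant response elements in front of genes for glutathione synthesis and detoxification. Of 25 NRF2 pathway genes tested, 6 were called higher and 0 lower (24%, beside 3.59% of all genes), 21 were positive, and the median was 0.37. Of 18 glutathione S-transferases, 2 were called higher (11.1%), 14 were positive, and the median was 0.38. Promoters of 4 of the called genes are printed here because they hold, or in one case lack, the core of that element. They are the 250 bases before the RefSeq start site (GRCm38.p6), 5′ to 3′ in the sense of the gene. Capitals mark every match, on either strand, to the element's core, TGACNNNGC, or to the AP-1 site, TGANTCA, and in the *Prdx1* sequence the capitals nearer the gene hold both in overlap.
*Gsta3* promoter, plus strand, chr1:21240335-21240584: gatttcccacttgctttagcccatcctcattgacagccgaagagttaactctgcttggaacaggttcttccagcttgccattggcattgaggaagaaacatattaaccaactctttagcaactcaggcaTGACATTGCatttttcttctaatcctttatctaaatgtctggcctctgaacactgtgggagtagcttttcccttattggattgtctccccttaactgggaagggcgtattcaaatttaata
*Gclm* promoter, plus strand, chr3:122245307-122245556: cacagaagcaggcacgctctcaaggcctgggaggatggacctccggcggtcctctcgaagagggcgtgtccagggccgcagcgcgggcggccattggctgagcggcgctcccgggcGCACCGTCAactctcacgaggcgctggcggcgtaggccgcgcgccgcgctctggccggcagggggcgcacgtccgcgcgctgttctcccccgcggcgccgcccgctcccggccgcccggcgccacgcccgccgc
*Prdx1* promoter, plus strand, chr4:116685349-116685598: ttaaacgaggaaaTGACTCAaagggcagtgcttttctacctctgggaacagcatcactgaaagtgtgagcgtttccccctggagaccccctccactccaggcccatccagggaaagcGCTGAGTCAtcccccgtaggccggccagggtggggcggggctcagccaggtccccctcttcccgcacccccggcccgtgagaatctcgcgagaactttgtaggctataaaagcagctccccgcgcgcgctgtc
*Srxn1* promoter, plus strand, chr2:152105274-152105523: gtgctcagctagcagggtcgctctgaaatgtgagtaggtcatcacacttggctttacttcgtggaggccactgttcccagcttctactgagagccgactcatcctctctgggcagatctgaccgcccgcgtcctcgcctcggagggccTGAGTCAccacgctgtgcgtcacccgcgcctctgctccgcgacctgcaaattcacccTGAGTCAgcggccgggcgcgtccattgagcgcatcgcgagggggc

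The core began 121 bases before the start of *Gsta3*, 134 before *Gclm*, 133 before *Prdx1* and, in a promoter not printed, 222 before *Mafg*. In *Srxn1* only AP-1 matches were found, 102 and 45 bases before the start. The promoters of the called genes *Cat* and *Gstm1*, not printed, held neither the core nor the AP-1 site. *Gclc* had no entry in the promoter table used. Over the list, 8 of 22 NRF2 pathway promoters held the core (36.4%) and 4 of 16 glutathione S-transferase promoters (25%), beside 1586 of 11590 promoters of all tested genes (13.7%), 46 of 248 of the genes called higher (18.5%) and 34 of 220 of those called lower (15.5%). The AP-1 site was in 5.82% of all promoters. A match is a run of letters, and binding was not measured.

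*Srxn1*, sulfiredoxin, which repairs peroxiredoxins, had 2175 and 3086 normalized counts in sufficient and 5447 and 7698 in *Ncoa6*-KO libraries (1.32 ± 0.181, adjusted p = 0.00517). The limiting enzyme of glutathione synthesis had both subunits raised: *Gclc*, the catalytic subunit, had 230 and 286 against 510 and 751 (1.29 ± 0.223, adjusted p = 0.0133), and *Gclm*, the modifier, 1358 and 1738 against 2482 and 3382 (0.92 ± 0.177, adjusted p = 0.0203). In all of these the *Ncoa6*-KO libraries exceeded both sufficient libraries, with *Ncoa6*-KO library 2 the highest. Catalase, *Cat*, was at 0.62 ± 0.109, the small MAF gene *Mafg* at 0.58 ± 0.124 and the peroxiredoxin *Prdx1* at 0.49 ± 0.116 (adjusted p = 0.0142, 0.0316 and 0.0432). *Gsta3* had 151 and 168 against 593 and 971 (2.29 ± 0.28, adjusted p = 0.00348), and *Gstm1* 2853 and 3023 against 4125 and 4288 (0.52 ± 0.0864, adjusted p = 0.0116). Members that are known best were positive without passing edgeR's test: *Hmox1*, heme oxygenase, had 4483 and 4662 against 6161 and 9959 (0.82, adjusted p = 0.0634), *Nqo1* 72 and 120 against 141 and 204 (0.84, adjusted p = 0.126), and *Nfe2l2*, which encodes NRF2, 5463 and 5418 against 6368 and 6948 (0.29, adjusted p = 0.151). DESeq2 called *Hmox1* but not *Nqo1* or *Nfe2l2*, and 9 of the 25 pathway genes in all. *Gsta3* kept its call without any 1 library. The calls of the other 7 were lost without sufficient library 1, at log2 fold changes between 0.47 and 1.13, and without *Ncoa6*-KO library 2, between 0.38 and 1.05. *Mafg* and *Prdx1* also lost the call without sufficient library 2 (0.67 for *Mafg* and 0.49 for *Prdx1*) and *Prdx1* without *Ncoa6*-KO library 1 (0.57). With DESeq2's size factors *Prdx1* lost its call. In medium alone 0 of the 25 NRF2 pathway genes were called and the median was 0.04.

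*Sqstm1*, which encodes the autophagy receptor p62, was among the most abundant called transcripts by count, with 35842 and 45912 normalized counts in sufficient and 80802 and 103486 in *Ncoa6*-KO libraries (1.17 ± 0.161, adjusted p = 0.00518). Its call was lost without sufficient library 1 or *Ncoa6*-KO library 2 (1.00 and 0.98 for *Sqstm1*). The stress cytokine *Gdf15* had 1200 and 1625 against 4852 and 5293 (1.84 ± 0.145, adjusted p = 0.000413), a call that held without any 1 library. With medium alone it had 1363 and 1255 against 1734 and 1437 (0.28, adjusted p = 0.463). Among 27 genes of the integrated stress response, which slows translation through phosphorylated eIF2α while ATF4 targets are made, *Gdf15* was joined by *Sesn2* (0.77 ± 0.135), *Atf5* (0.78 ± 0.14) and *Ppp1r15a*, a subunit that dephosphorylates eIF2α (0.54 ± 0.107), with adjusted p between 0.0142 and 0.0219. The constitutive counterpart *Ppp1r15b* (-0.71 ± 0.148, adjusted p = 0.0288) and the serine synthesis gene *Psat1* (-0.75 ± 0.128, adjusted p = 0.0129) were lower. The list did not move as a whole, with 14 positive and 13 negative and a median of 0.01, and *Asns*, a standard ATF4 target, was at -0.43 (adjusted p = 0.358). Called shares were 22.2% of this list and 15% of the iron and metallothionein list, beside 3.59% of all genes. Iron genes were split also. *Slc40a1*, ferroportin, the iron exporter, had 669 and 680 against 1138 and 1595 (1.02 ± 0.163, adjusted p = 0.0103), *Tfrc*, the transferrin receptor, was at 0.55 ± 0.098 (adjusted p = 0.0147), and *Cp*, the ferroxidase ceruloplasmin, at -0.83 ± 0.191 (adjusted p = 0.0408). The calls of *Sesn2*, *Atf5*, *Ppp1r15a*, *Ppp1r15b*, *Psat1*, *Slc40a1*, *Tfrc* and *Cp* were lost without sufficient library 1 (0.75 for *Sesn2*, 0.74 for *Atf5*, 0.40 for *Ppp1r15a*, -0.52 for *Ppp1r15b*, -0.62 for *Psat1*, 1.00 for *Slc40a1*, 0.52 for *Tfrc* and -0.76 for *Cp*). *Sesn2*, *Atf5*, *Tfrc* and *Cp* also lost the call without sufficient library 2 (0.77 for *Sesn2*, 0.81 for *Atf5*, 0.56 for *Tfrc* and -0.91 for *Cp*), *Sesn2*, *Atf5* and *Ppp1r15a* without *Ncoa6*-KO library 1 (0.55 to 0.77) and *Sesn2*, *Atf5*, *Ppp1r15a*, *Ppp1r15b*, *Psat1*, *Slc40a1*, *Tfrc* and *Cp* without *Ncoa6*-KO library 2 (-0.62 to -0.55 for the lower and 0.48 to 0.86 for the higher genes).

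Some targets of p53 were higher, and some genes of mitosis lower. p53 halts the cell cycle after damage, largely through p21, the product of *Cdkn1a*. Of 14 genes on the p53 list, 12 were positive with a median of 0.44, 4 were called higher and 1 lower (35.7% called, beside 3.59% of all genes). Without each of the 4 libraries in turn the median ran from 0.25 to 0.64, and 1 gene was called without sufficient library 1 and 1 without *Ncoa6*-KO library 2. *Cdkn1a* had 28692 and 30072 normalized counts in sufficient and 43963 and 55140 in *Ncoa6*-KO libraries (0.75 ± 0.149, adjusted p = 0.0226). *Phlda3*, an inhibitor of AKT, had 140 and 190 against 521 and 817 (2.02 ± 0.25, adjusted p = 0.00367), and *Zmat3*, an RNA-binding tumor suppressor, 247 and 350 against 553 and 800 (1.18 ± 0.192, adjusted p = 0.0104). *Eda2r*, a death receptor of the TNF receptor family, went from 5.54 and 13.8 to 64 and 65.8 (2.73 ± 0.394, adjusted p = 0.006). *Btg2*, an antiproliferative target, was the reverse of these, with 744 and 545 against 284 and 274 (-1.21 ± 0.165, adjusted p = 0.00517). *Trp53* was at 0.33 and *Mdm2* at 0.31 (adjusted p = 0.173 and 0.211). The 4 calls of higher genes were lost without sufficient library 1 (0.71 for *Cdkn1a*, 1.80 for *Phlda3*, 0.94 for *Zmat3* and 2.22 for *Eda2r*). *Cdkn1a* also lost the call without sufficient library 2 (0.78) and *Cdkn1a*, *Zmat3* and *Eda2r* without *Ncoa6*-KO library 2 (0.58 to 2.71). That of *Btg2* was lost without *Ncoa6*-KO library 2 (-1.19).

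Of 29 genes of mitosis and chromosome segregation, 28 were negative and 9 (*Top2a*, *Cdk1*, *Ccnb1*, *Kif11*, *Cenpa*, *Cenpe*, *Nuf2*, *Birc5* and *Ube2c*) were called lower, with a median of -0.34. Called shares were 31% of this list and 9.09% of the replication list below, beside 3.59% of all genes. *Cdk1*, the kinase that drives mitotic entry, had 1448 and 1456 normalized counts in sufficient and 927 and 922 in *Ncoa6*-KO libraries (-0.65 ± 0.0922, adjusted p = 0.00574). Its partner *Ccnb1*, cyclin B1, was at -0.54 ± 0.0997, the ubiquitin-conjugating enzyme gene *Ube2c* at -0.62 ± 0.111 and *Birc5*, survivin, at -0.55 ± 0.108, with adjusted p between 0.0148 and 0.0215. The differences were small beside those of surface receptors, yet the replicates were close. *Mki67*, the usual proliferation marker, had 3608 and 5269 against 4466 and 3768 (-0.11, adjusted p = 0.793), with overlapping groups. Of 33 genes of DNA replication and the G1/S step, 26 were negative and 3 were called lower: *Gins1*, a subunit of the replicative helicase (-0.71 ± 0.166), *Ccnd3*, cyclin D3 (-0.57 ± 0.123), and *Rrm1*, which makes deoxynucleotides (-0.40 ± 0.0922), with adjusted p between 0.0332 and 0.0432. Without *Ncoa6*-KO library 2, 0 of the 29 mitosis genes were called, and without sufficient library 1, 1 was. Without each of the 4 libraries in turn the median of the list ranged from -0.50 to -0.22. The 3 replication calls were lost without each of the 4 libraries, at -0.85 to -0.39 over all alternatives.

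**Figure D4:**
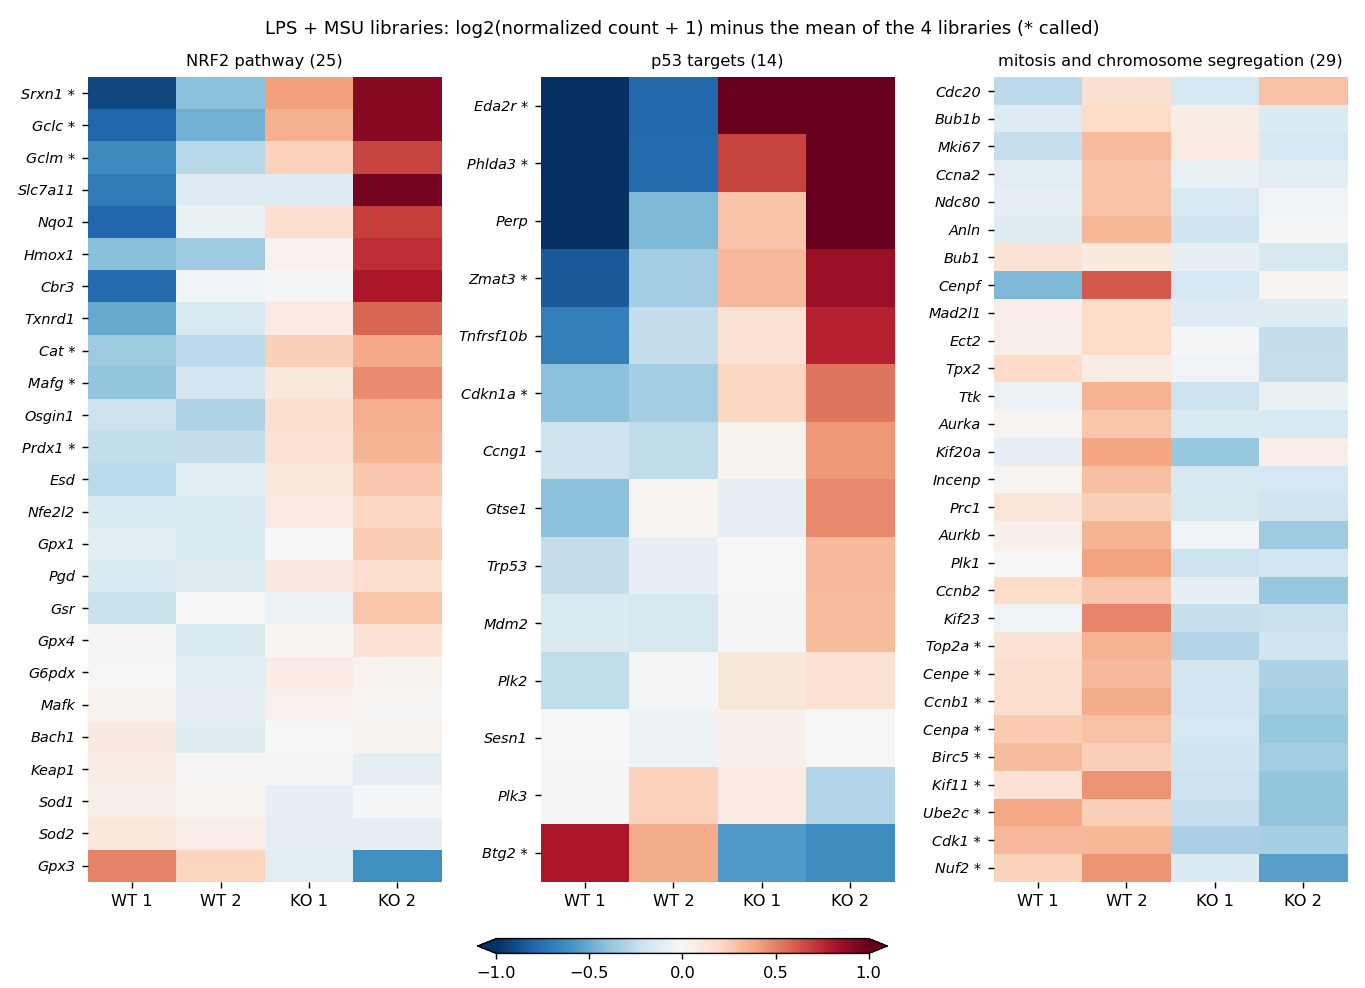
Log2(normalized count + 1) of each LPS + MSU library relative to the mean of the 4 libraries, for the 25 tested NRF2 pathway genes, 14 p53 genes and 29 mitosis genes, in order of fold change, with called genes starred (red high, blue low, colours limited at 1). In the first and second panels colour runs from sufficient (WT) library 1, the lowest, to *Ncoa6*-KO library 2, the highest, and in the third the lower rows are red in both sufficient and blue in both *Ncoa6*-KO libraries.

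Transcription factors of the macrophage lineage changed in both directions. Of 18 tested, 3 were called higher and 3 lower (33.3% called, beside 3.59% of all genes). *Maf*, which holds macrophages in a mature, self-limited state and binds the *Il10* promoter, had 16528 and 13257 normalized counts in sufficient and 8066 and 6581 in *Ncoa6*-KO libraries (-1.02 ± 0.137, adjusted p = 0.00472), a call lost without *Ncoa6*-KO library 2 (-0.89). *Cebpd* was lower by a smaller amount, 3103 and 2647 against 1787 and 1559 (-0.78 ± 0.151, adjusted p = 0.0205). *Cebpa*, which directs myeloid differentiation, was low after stimulation in both genotypes but higher in the *Ncoa6*-KO, with 16.6 and 28.9 against 64 and 104 (1.86 ± 0.306, adjusted p = 0.0107). With medium alone it had 1572 and 1472 against 1540 and 1728. *Bhlhe41* had 366 and 614 against 1081 and 1658 (1.48 ± 0.24) and *Bhlhe40* 74.8 and 85.4 against 149 and 208 (1.15 ± 0.188), both with adjusted p = 0.0104. They encode repressors that take part in macrophage self-renewal. In medium alone the difference of *Maf* was -0.09 (adjusted p = 0.87). The calls of *Cebpd*, *Cebpa*, *Bhlhe41* and *Bhlhe40* were lost without sufficient library 1 (-0.67 for *Cebpd*, 1.51 for *Cebpa*, 1.15 for *Bhlhe41* and 1.05 for *Bhlhe40*). *Cebpd* also lost the call without *Ncoa6*-KO library 1 (-0.90) and *Cebpd*, *Cebpa*, *Bhlhe41* and *Bhlhe40* without *Ncoa6*-KO library 2 (-0.69 for *Cebpd*, 1.48 for *Cebpa*, 1.14 for *Bhlhe41* and 0.89 for *Bhlhe40*). Of 9 colony-stimulating factors and receptors, *Csf3*, which encodes G-CSF, was called lower, with 313 and 291 against 120 and 168 (-1.07 ± 0.227, adjusted p = 0.0304), a call lost without each of the 4 libraries (-1.33 to -0.86 over all alternatives). *Csf1r*, the M-CSF receptor, was at -0.16 (adjusted p = 0.569), and the called share of those 9 genes was 11.1%. An antisense transcript over *Maf*, *Gm15655*, was called lower as well (157 and 169 against 52.3 and 60.2, -1.54 ± 0.332, adjusted p = 0.0329), a call lost without sufficient library 1 (-1.60 for *Gm15655*). *Gm15655* also lost the call without sufficient library 2 (-1.49), again without *Ncoa6*-KO library 1 (-1.45) and again without *Ncoa6*-KO library 2 (-1.64). The strand setting of the counting is not given in the sources used here, so its reads and those of *Maf* may not be fully separate.

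Some genes that act on matrix and lipids were called, in both directions. Of 11 matrix metalloproteinases, *Mmp13*, a collagenase, had 56437 and 36038 normalized counts in sufficient and 17435 and 20540 in *Ncoa6*-KO libraries (-1.28 ± 0.192, adjusted p = 0.00736), and *Mmp14*, which is membrane-bound, was at -0.73 ± 0.153 (adjusted p = 0.0287). *Timp3*, an inhibitor of both, had 56.8 and 46.8 against 9.15 and 15.4 (-2.07 ± 0.492, adjusted p = 0.0453). The call of *Mmp13* was lost without either *Ncoa6*-KO library, that of *Mmp14* without sufficient library 1 or *Ncoa6*-KO library 2, and that of *Timp3* without each of the 4 libraries (-1.58 to -0.93, -0.89 to -0.60 and -2.49 to -1.76 over all alternatives). In the eicosanoid pathway, *Ltc4s*, which makes leukotriene C4, had 58.2 and 53.7 against 119 and 150 (1.26 ± 0.245, adjusted p = 0.0211), while *Ptgs1*, constitutive cyclooxygenase, was at -0.69 ± 0.155 (adjusted p = 0.0378) and the leukotriene receptor gene *Cysltr1* at -0.54 ± 0.127 (adjusted p = 0.0449). *Ptgs2*, the inducible cyclooxygenase, had 87696 and 83678 against 77336 and 65402 (-0.26, adjusted p = 0.452). Those 3 eicosanoid calls were lost without sufficient library 1 (1.31 for *Ltc4s*, -0.74 for *Ptgs1* and -0.52 for *Cysltr1*). *Ltc4s*, *Ptgs1* and *Cysltr1* also lost the call without sufficient library 2 (1.19 for *Ltc4s*, -0.65 for *Ptgs1* and -0.57 for *Cysltr1*), *Ptgs1* without *Ncoa6*-KO library 1 (-0.47) and *Ltc4s* and *Cysltr1* without *Ncoa6*-KO library 2 (1.08 for *Ltc4s* and -0.39 for *Cysltr1*). *Nos2* at -0.27 and *Acod1*, which makes itaconate, at -0.24 did not pass (adjusted p = 0.459 and 0.37). Of 38 lysosomal genes, 2 were called (5.26%, beside 3.59% of all genes). *Ctsk*, a collagen-degrading protease of osteoclasts, was called higher (237 and 242 against 435 and 402, 0.80 ± 0.125, adjusted p = 0.00901) and *Ctsc*, which activates granule proteases, lower (49393 and 32871 against 24730 and 20714, -0.86 ± 0.176, adjusted p = 0.0262). *Spp1*, osteopontin, had 188011 and 183445 against 266752 and 294332 (0.60 ± 0.141, adjusted p = 0.0449). *Gas6*, a bridge between dying cells and the receptors that take them up, had 8353 and 8154 against 13288 and 13514 (0.70 ± 0.104, adjusted p = 0.00716). Without sufficient library 1 the calls of *Ctsk*, *Ctsc*, *Spp1* and *Gas6* were lost (0.78 for *Ctsk*, -0.54 for *Ctsc*, 0.60 for *Spp1* and 0.71 for *Gas6*). *Spp1* also lost the call without sufficient library 2 (0.57), *Ctsc* and *Spp1* without *Ncoa6*-KO library 1 (-1.01 for *Ctsc* and 0.65 for *Spp1*) and *Ctsk*, *Ctsc*, *Spp1* and *Gas6* without *Ncoa6*-KO library 2 (0.86 for *Ctsk*, -0.74 for *Ctsc*, 0.52 for *Spp1* and 0.68 for *Gas6*).

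Of the larger families defined by gene name, solute carriers and Gpr- and Adgr-named receptors held calls in both directions and histones held higher ones. *Rhof*, which forms filopodia, had 72 and 71.6 normalized counts in sufficient and 206 and 204 in *Ncoa6*-KO libraries (1.51 ± 0.178, adjusted p = 0.00315), and *Arhgap4*, a GTPase activator, 1150 and 1089 against 511 and 522 (-1.12 ± 0.0892, adjusted p = 0.000413). Both calls held without any 1 library. Of 249 solute carriers, 11 were called higher and 2 lower, 5.22% beside 3.59% of all genes. They include the thiamine transporter gene *Slc19a2* (108 and 117 against 233 and 350, 1.37 ± 0.195, adjusted p = 0.0059) and, lower, the nucleoside transporter gene *Slc28a2* (50547 and 49816 against 29976 and 25478, -0.86 ± 0.123, adjusted p = 0.00596) and the lysosomal peptide carrier *Slc15a3* (-0.52 ± 0.119, adjusted p = 0.0399). These 3 calls were lost without sufficient library 1 (1.3 for *Slc19a2*, -0.85 for *Slc28a2* and -0.49 for *Slc15a3*). *Slc15a3* also lost the call without sufficient library 2 (-0.56), again without *Ncoa6*-KO library 1 (-0.63) and *Slc19a2*, *Slc28a2* and *Slc15a3* without *Ncoa6*-KO library 2 (1.04 for *Slc19a2*, -0.75 for *Slc28a2* and -0.43 for *Slc15a3*). Of 64 Gpr- and Adgr-named receptors, 5 were called lower and 2 higher (10.9%). *Gpr84*, a receptor for medium-chain fatty acids, had 9353 and 8903 against 4886 and 5735 (-0.78 ± 0.143, adjusted p = 0.0167), and *Gpr65*, which senses acid, 1111 and 947 against 566 and 498 (-0.95 ± 0.13, adjusted p = 0.00517). Both were lost without sufficient library 1 (-0.76 for *Gpr84* and -0.84 for *Gpr65*). *Gpr84* also lost the call without *Ncoa6*-KO library 1 (-0.69) and *Gpr84* and *Gpr65* without *Ncoa6*-KO library 2 (-0.91 for *Gpr84* and -0.87 for *Gpr65*). Of 46 histone genes, 5 were called higher (10.9%) and 0 lower, with *Hist1h2bc* at 392 and 446 against 799 and 897 (1.02 ± 0.11, adjusted p = 0.00201) and *Hist1h1c* at 539 and 771 against 1353 and 1385 (1.06 ± 0.14, adjusted p = 0.00433), the latter lost without *Ncoa6*-KO library 2 (1.04). Most histone mRNAs have no poly(A) tail and are caught in part by the poly(A) libraries used. No call at all was made among 82 cytosolic ribosomal protein genes (4 at an unadjusted p under 0.05, 1 called by DESeq2), 80 oxidative phosphorylation subunits (5 and 0), 28 glycolysis and HIF-1 genes (3 and 0), 22 genes of the BCL-2 family and cell death (9 and 1) and 21 heat shock and unfolded protein response genes (7 and 5).

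The calls that rest least on any LPS + MSU library were 38, 22 higher and 16 lower, those kept when each of these 4 libraries was left out in turn. The medium libraries, which also enter the fit, were not left out for this count. The genes of this paragraph were chosen after their values were seen. *Ephx1*, microsomal epoxide hydrolase, which detoxifies epoxides, had 536 and 618 normalized counts in sufficient and 1768 and 1857 in *Ncoa6*-KO libraries (1.65 ± 0.0983, adjusted p = 4.02e-05). *Rgs14*, a regulator of G protein signalling, had 2664 and 2600 against 962 and 939 (-1.47 ± 0.0848, adjusted p = 4.02e-05). Within each gene the replicates agreed closely. Among the genes higher were 2 inhibitors of cyclin-dependent kinases, *Cdkn1c*, which encodes p57 (161 and 187 against 434 and 506, 1.43 ± 0.153), and *Cdkn2a*, which encodes p16 and p19ARF (288 and 248 against 549 and 581, 1.07 ± 0.134), with adjusted p = 0.00191 and 0.0037. *Maoa*, monoamine oxidase A, had 585 and 661 against 1636 and 2411 (1.70 ± 0.171), and *Dio2*, which activates thyroid hormone, 324 and 380 against 915 and 1207 (1.59 ± 0.143). *Rcan1*, an inhibitor of calcineurin, had 1915 and 1972 against 3346 and 3349 (0.78 ± 0.0848). Among the genes lower were the extracellular proteins *Tgfbi* (820 and 839 against 325 and 378, -1.24 ± 0.127) and *Ecm1* (2293 and 2271 against 1411 and 1317, -0.74 ± 0.0859). *Lpcat2*, which makes platelet-activating factor, had 3107 and 2954 against 1712 and 1714 (-0.82 ± 0.0936), and *Hcar2*, the receptor for nicotinic acid and hydroxybutyrate, 5931 and 5090 against 2905 and 3187 (-0.86 ± 0.11). The adjusted p of these last 7 genes ran from 0.000749 to 0.00418. Of the genes named above, *Ncoa6*, *Gdf15*, *Pilra*, *Pilrb1*, *Slfn4*, *Sema4c*, *Cd300lf*, *Panx1*, *Hist1h2bc*, *Il1a*, *Rhof*, *Arhgap4*, *Gsta3* and *Itgal* belonged to the 38.

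The remaining large changes were spread over many functions. Higher were *Gria3*, a glutamate receptor subunit (16.6 and 27.5 against 106 and 139, 2.46 ± 0.317, adjusted p = 0.00418), *Zfp462*, a zinc-finger protein of chromatin (13.9 and 34.4 against 118 and 125, 2.32 ± 0.299, adjusted p = 0.00418), and *Nedd4*, a ubiquitin ligase (84.5 and 66.1 against 238 and 305, 1.85 ± 0.207, adjusted p = 0.00248). *Npdc1* (2.09 ± 0.23) and the neuronal pentraxin gene *Nptx1* (1344 and 1250 against 3445 and 5189, 1.73 ± 0.227) were higher with adjusted p = 0.0022 and 0.00423. *Prkaa2*, a catalytic subunit of AMPK, and *Inka2* were higher by 1.86 ± 0.406 and 2.11 ± 0.41 (adjusted p = 0.0336 and 0.0211). Lower were *Ptprn*, a receptor-like phosphatase protein of secretory granules (363 and 271 against 82.3 and 82.5, -1.94 ± 0.244, adjusted p = 0.0038), and *Rnase6*, an antimicrobial ribonuclease (231 and 114 against 52.3 and 54.6, -1.69 ± 0.326, adjusted p = 0.0205). *Zfp462*, *Nedd4* and *Npdc1* belonged to the 38 of the preceding paragraph. The calls of *Gria3*, *Nptx1*, *Prkaa2*, *Inka2* and *Rnase6* were lost without sufficient library 1 (2.13 for *Gria3*, 1.78 for *Nptx1*, 1.41 for *Prkaa2*, 2.00 for *Inka2* and -1.11 for *Rnase6*). *Inka2* also lost the call without sufficient library 2 (2.20), *Rnase6* without *Ncoa6*-KO library 1 (-1.68) and *Nptx1*, *Prkaa2*, *Inka2* and *Rnase6* without *Ncoa6*-KO library 2 (1.41 for *Nptx1*, 1.49 for *Prkaa2*, 1.29 for *Inka2* and -1.73 for *Rnase6*). The call of *Ptprn* was lost without *Ncoa6*-KO library 2 (-1.95). *Gm6545*, annotated as a processed pseudogene, was lower (2053 and 1018 against 579 and 385, -1.67 ± 0.293, adjusted p = 0.0141, lost without sufficient library 1 or *Ncoa6*-KO library 2 at -1.08 and -1.41 for *Gm6545*), but reads of its parent gene and of *A330040F15Rik*, which overlaps it on the same strand, could be counted there.

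With medium alone 331 genes (1.88%) were called between the genotypes, and 148 were called in both conditions. Of the 632 genes called after LPS + MSU, 580 had the same sign with medium alone. The same count over all genes tested was not made. List medians with medium alone were -0.41 for the IL-1 family, -0.8 for chemokines, -0.58 for complement and -1.08 for Ms4a and Tmem176 genes. They were 0.39 for p53 targets, -0.42 for mitosis genes and 0.26 for glutathione S-transferases. In that order 2, 5, 2, 1, 3, 8 and 1 members were called there. The test of whether the knockout effect differed between the conditions called 0 genes after adjustment with edgeR (smallest adjusted p = 0.163), 1045 at an unadjusted p under 0.05 and 45 with DESeq2. The adjusted p-values beside pairs of values here are those of edgeR's test. Of the 632, 266 had an unadjusted interaction p under 0.05, beside 1045 of all 17625 genes tested. The 632 were chosen by the LPS + MSU difference, which is part of that contrast. Their count therefore does not measure how many effects depend on stimulation. The genotypes did not overlap in either condition but lay in opposite order for 663 genes (3.76%), 8 of the 228 named genes among them. Some genes differed by like amounts in both conditions: *Apoe*, *Ptprn*, *Pilrb1*, *Npdc1* and *Arhgap4* had an adjusted interaction p of 1. Others were nearer zero without stimulation: *Gdf15* was at 1.84 against 0.28 (adjusted p = 0.163), *Rhof* at 1.51 against 0.00 (adjusted p = 0.234), *Panx1* at 0.99 against 0.11 (adjusted p = 0.234), *Cebpa* at 1.86 against 0.10 (adjusted p = 0.337), *Maf* at -1.02 against -0.09 (adjusted p = 0.337), *Sema4c* at -1.78 against -0.59 (adjusted p = 0.337) and *Sqstm1* at 1.17 against 0.21 (adjusted p = 0.437). Further genes had a deeper difference without stimulation, among them *Mmp14* at -0.73 against -1.78 (adjusted p = 0.365), *Cfb* at -0.77 against -1.72 (adjusted p = 0.534) and *Trim30b* at -0.35 against -1.07 (adjusted p = 0.337). The named genes of this kind that were not called after LPS + MSU include *Cxcl10* (-0.15 against -1.67, adjusted p = 0.22), *Acod1* (-0.24 against -1.27, adjusted p = 0.271), *Tnf* (0.04 against -0.72, adjusted p = 0.437) and *Irf7* (-0.39 against -1.53, adjusted p = 0.45).

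**Figure D5:**
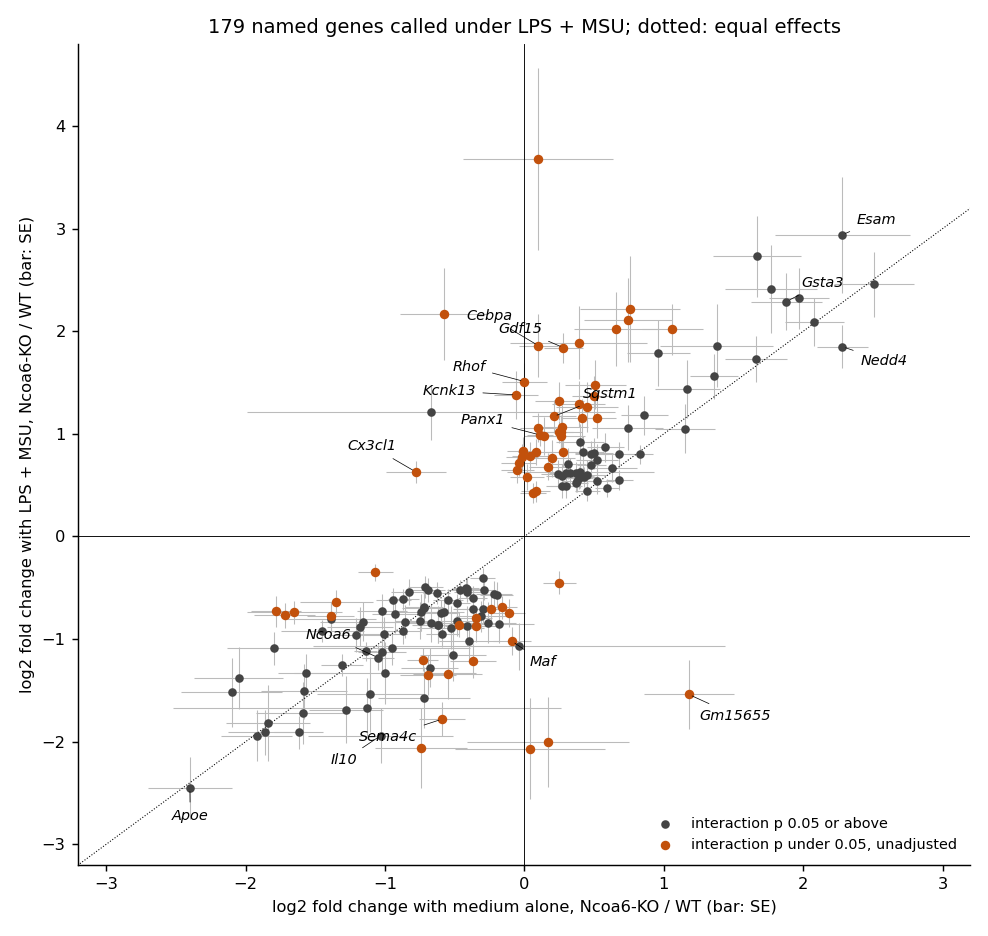
Log2 fold change of *Ncoa6*-KO over sufficient cells with LPS + MSU (vertical) against that with medium alone (horizontal) for the 179 named genes called under LPS + MSU, with bars of 1 SE and a dotted line of equal effects. The 62 orange points have an interaction p under 0.05 before adjustment, *Apoe*, *Nedd4* and *Gsta3* lie near the line, and *Gdf15*, *Rhof*, *Cebpa* and *Maf* lie near the vertical axis. No interaction passed adjustment in edgeR's test, and the points were chosen by the LPS + MSU difference, which is part of the interaction.

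Position and cell makeup were checked beside these results. Within 5 Mb of *Ncoa6*, 8 of 147 other genes tested were called (5.44%, beside 3.59% of all genes), 5 higher (*Map1lc3a*, *Src*, *Srxn1*, *Trp53inp2* and *Snhg11*) and 3 lower, *Gins1* among them, and within 5 Mb of *Lyz2* 0 of 50 were. *Srxn1* and *Gins1* are therefore both linked to the target and members of lists above, and the part of linkage in their values was not tested. *Lyz2*, the gene that carries Cre, had 270329 and 217335 normalized counts in sufficient and 129385 and 123265 in *Ncoa6*-KO libraries (-0.95 ± 0.168, adjusted p = 0.0142), and its call was lost without sufficient library 1 or either *Ncoa6*-KO library (-1.11 to -0.79). Over the autosomes and X, called shares ran from 2.50% on chromosome 10 to 4.92% on chromosome 19. The macrophage markers were all present and 4 of 10, *Fcgr1*, *Itgam* and *Lyz2* among them, were called lower. Their summed level was 19500 and 17800 CPM (counts scaled to a common library total) in sufficient and 15300 and 14300 in *Ncoa6*-KO libraries. *Lyz2* alone, at 7060 and 5850 against 3560 and 3480 CPM, made up most of that difference, and the sum without it was 12400 and 11900 against 11700 and 10800. The 12 neutrophil markers summed to 24.4 to 30.0 CPM with 0 of 11 tested called. The 8 B-cell markers summed to under 1 CPM (0.316 to 0.964, *Vpreb3* and *Igll1* at 0), the 9 T and NK cell markers to 2.85 to 6.8 (*Cd3e*, *Cd3g*, *Cd8a*, *Ncr1* and *Gzma* at 0), the 8 dendritic cell markers to 4.45 to 7.2, the 8 of mast cells and basophils to 0.615 to 2.29 and the 8 of erythroid cells and megakaryocytes to 0.334 to 0.682. The 9 stromal and endothelial markers summed to 190 and 206 CPM in sufficient and 156 and 108 in *Ncoa6*-KO libraries, with 0 of 7 tested called and *Emcn* at 0, and the part of such cells in the results was not tested. In bulk RNA, fewer cells of a type and less RNA per cell cannot be told apart. Among genes known to vary between C57BL/6 substrains, *Ide* (913 and 869 against 1628 and 1475, 0.80 ± 0.0951) and *Entpd4* (0.59 ± 0.116) were called, with adjusted p = 0.00323 and 0.0229, that of *Entpd4* lost without sufficient library 1 (0.65 for *Entpd4*). *Entpd4* also lost the call without sufficient library 2 (0.50), again without *Ncoa6*-KO library 1 (0.62) and again without *Ncoa6*-KO library 2 (0.53). Of 6 such substrain genes tested, 33.3% were called. An entry of *Nnt* had 1.39 and 112 against 66.7 and 185, so sufficient library 1 stood apart from library 2 of its own genotype for that entry (1.14 ± 0.783, adjusted p = 0.509). Another entry of *Nnt* overlaps it on the same strand and was at -0.07 (adjusted p = 0.873). Reads may have been divided between these entries, and the cause of the low count was not tested.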

How the data were processed

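RNA from 8 libraries of bone marrow-derived macrophages was prepared with a stranded poly(A) kit and sequenced by the authors, who aligned the reads with STAR 2.7.3a and quantified genes with RSEM 1.3.3. The deposited values are RSEM expected counts per gene, not normalized. The strand setting of RSEM is not given in the sources used here. After rounding to whole numbers, the 17625 of 50615 genes with a sum of at least 10 over the 8 libraries were fitted with edgeR 4.0.16 (R 4.3.3; TMM scaling, 4 groups, quasi-likelihood test, 4 residual degrees of freedom, median biological coefficient of variation 0.114), with the contrast of *Ncoa6*-KO against sufficient cells under LPS + MSU, under medium alone, and their difference. Totals were 25281955 to 33673552 counts, and p-values measure the spread between these libraries. The standard error of a log2 fold change is its size divided by the square root of F.

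On simulated data 81.5% of 108 genes changed by 1 on the log2 scale and 98.9% of 92 changed by 2 were recovered, with 9 false calls among 17308 genes. The changed genes were drawn from those with a mean above 1 CPM, and the libraries were simulated independently with the fitted spread. These shares therefore do not measure recovery for genes of lower level or in the real libraries. Genes named were *Ncoa6*, *Lyz2* and *Lyz1*, the 15 highest and 15 lowest fold changes of called genes whose groups were apart and whose mean normalized count reached 50, up to 6 called members and some well-known members of each list, the 10 most abundant called genes and called genes within 5 Mb of the engineered loci. The members and lists were chosen with earlier results of these data known. Alternatives were DESeq2 1.42.0, its size factors, limma 3.58.1 with voom, other filters, the replicate number as a block, the 4 stimulated libraries alone and each library left out. Annotation was from GENCODE for GRCm38 and promoters were from RefSeq, which held 11590 of the tested genes. Results on some genes are not reported here.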

Additional observations from a re-analysis of the deposited data

Results flagged for a closer look

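For 8 of the 228 named genes, both *Ncoa6*-KO libraries lay on one side of both sufficient libraries after LPS + MSU and on the other side with medium alone, as was so for 3.76% of all genes tested. None of these differences between conditions passed adjustment in edgeR's test of the difference (adjusted p 0.269 to 0.941), and the adjusted p of each difference is given. *Gm15655*, antisense to *Maf*, was at -1.54 with LPS + MSU and 1.18 with medium alone (adjusted p = 0.269), with 157 and 169 normalized counts in sufficient against 52.3 and 60.2 in *Ncoa6*-KO cells when stimulated, and 30 and 49.9 against 117 and 60.6 when not. *Cx3cl1* was at 0.63 and -0.78 (adjusted p = 0.269), with 20.9 to 43.5 normalized counts in the medium libraries. *Dusp16* was at -0.45 and 0.25 (adjusted p = 0.406). *Kcnk13*, a potassium channel gene, was at 1.38 and -0.06 (adjusted p = 0.337), and LPS + MSU libraries held 56.8 to 248 normalized counts where medium libraries held 1778 to 1902. *Hist1h1d* was at 2.17 and -0.58 (adjusted p = 0.337), from 5.54 and 6.89 against 23.5 and 33.6 when stimulated. *Adamts14* was at -2.0 and 0.17 (adjusted p = 0.701). *Cxcl3* was at 1.21 and -0.67 (adjusted p = 0.919) and *Ifnb1* at -0.70 and 0.48 (adjusted p = 0.941), and the medium libraries of these last genes held at most 5.16 and 1.39 normalized counts.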

How the results depend on the processing

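The sign of all 632 calls was the same in every fit that tested them, while their number varied. The sign could hardly turn, as the fits share the same counts and the genotypes did not overlap for any of the 632. Against 632 called (345 higher, 287 lower), the fits gave 1611 (807 and 804) with no filter on low counts, 139 (72 and 67) with the 4 LPS + MSU libraries alone, 441 (215 and 226) with limma-voom, 849 (344 and 505) with DESeq2, 638 (295 and 343) with its size factors, which moved the median of all genes by -0.032, 624 with filterByExpr, and 182 at an absolute log2 fold change over 1. Leaving out each library in turn gave 58 to 761 called genes, 29 to 394 higher and 21 to 367 lower: 60 without sufficient LPS + MSU library 1, 58 without *Ncoa6*-KO LPS + MSU library 2, 426 and 393 without the other LPS + MSU libraries, and 374, 376, 761 and 760 without the medium libraries, the last of which were left out after the data had been seen. Of the calls, 582 were kept with DESeq2's size factors, 562 with DESeq2 (8 had no adjusted p) and 434 with voom. Named genes whose calls were lost were *Dusp4*, *Prdx1*, *Spp1*, *Plxna1* and *Map1lc3a* with the size factors, *Cp* with DESeq2, *Ms4a6b* and *Tnip3* with filterByExpr, and with voom *Gm5150*, *Rnase6*, *Ms4a6b*, *Gm15655*, *Esam*, *Inka2*, *Prkaa2*, *Cxcl3*, *Nlrc4*, *Nlrp1a*, *Tnip3*, *Dusp4*, *Dusp16*, *Dhcr7*, *Ptgs1*, *Cysltr1*, *Ncoa2*, *Ccnd3*, *Gins1*, *Entpd4*, *Trim30b* and *Map1lc3a*, beside those named with these tools elsewhere. Genes whose knockout effect differed between conditions numbered 0 in the fit reported, 45 with DESeq2, 269 with no filter, 0 to 23 when each library was left out, and 86 with the replicate block. Reversed in sign, none of them called, were *Tnf* without sufficient library 1 (-0.08 to 0.14 over the libraries left out) and *Mki67* without sufficient library 2 (0.18) and without *Ncoa6*-KO library 2 (0.01), with -0.36 to 0.18 over the libraries left out. Of the other values of single genes, 1814 kept direction and side of the threshold, 620 lost the call and 59 gained it. The cause of these differences was not tested.

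Replicate numbers are shared between groups, but no label says that a number marks a shared mouse or day. The deviations of same-numbered libraries from their group means, over 11943 genes, correlated at 0.349 between the conditions within *Ncoa6*-KO and at 0.301 within sufficient cells, at 0.139 between the genotypes with LPS + MSU and 0.158 with medium alone, and at 0.103 and 0.0549 where both differed, a hint from the data and not the design. With the replicate block, with 3 residual degrees of freedom, 1532 genes were called (750 higher, 782 lower), among them all 632, and 14 of the 49 interferon-stimulated genes and 7 of the 20 guanylate-binding proteins and p47 GTPases, against 1 and 0 without it.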

Other observations

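Smaller families not described above held further calls. Of 64 Rab GTPases, which direct vesicle traffic, 3 were called higher and 2 lower (7.81%, beside 3.59% of all genes), among them *Rab34* (209 and 231 normalized counts in sufficient against 388 and 378 in *Ncoa6*-KO cells, 0.80 ± 0.13, adjusted p = 0.0104) and *Rab20* (3570 and 2914 against 2389 and 2226, -0.49 ± 0.109, adjusted p = 0.0359). Of 15 tetraspanins, *Tspan32* (0.83 ± 0.142) and *Tspan7* (1.05 ± 0.238) were called higher and *Tspan33* (-0.74 ± 0.181) lower, with adjusted p of 0.0127, 0.0379 and 0.0498. *Nfil3*, a clock-linked repressor, was the called gene of 14 in the circadian list, 7.14% (745 and 562 against 438 and 266, -0.89 ± 0.211, adjusted p = 0.0449). Of 13 small nucleolar RNA host genes, *Snhg11* (11.1 and 15.1 against 47 and 93.7, 2.41 ± 0.43) and *Snhg15* (133 and 145 against 264 and 319, 1.07 ± 0.216) were called higher, with adjusted p of 0.0149 and 0.0249. Without sufficient library 1 each of these 8 calls was lost, at 0.72 for *Rab34*, -0.35 for *Rab20*, 0.70 for *Tspan32*, 0.99 for *Tspan7*, -0.69 for *Tspan33*, -0.68 for *Nfil3*, 2.19 for *Snhg11* and 1.0 for *Snhg15*, and so was each without *Ncoa6*-KO library 2. Without *Ncoa6*-KO library 1 those of *Rab20* and *Tspan32* were lost as well, and those of *Tspan7*, *Tspan33* and *Snhg15* without each of the 4 libraries. DESeq2 called neither *Tspan7* nor *Tspan33*, voom called neither of these nor *Snhg11* and *Snhg15*, and with filterByExpr *Tspan33* and *Nfil3* were not called. Called shares were 20% of the tetraspanins and 15.4% of the small nucleolar RNA host genes. All 23 serpins tested stayed uncalled by edgeR, 6 of them with an unadjusted p under 0.05 and 1 called by DESeq2.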
